A study of Mus musculus with 9 samples.

Results

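Ubiquitin-specific proteases (USPs) are the largest family of deubiquitinases, the enzymes that take ubiquitin off proteins. All genes whose symbol starts with Usp followed by a digit were taken from an RNA-seq table of mouse C2C12 myotubes, and 43 of its 10716 genes met this rule. Usp6nl bears the prefix by name only: it encodes a GTPase-activating protein for Rab proteins and no protease, so 42 members encode USPs. The rule used symbols alone and no measured value.

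Cells of the C2C12 line, a mouse myoblast line that fuses into myotubes when serum is withdrawn, had been treated for 24 h in 3 groups with 3 libraries each. The first received dexamethasone at 50 µM and THSG at 10 µM, the second dexamethasone at 50 µM alone, and the third vehicle. Dexamethasone is a synthetic glucocorticoid that activates the glucocorticoid receptor and lowers the size of cultured myotubes, and the labels give the culture as a model of muscle atrophy. THSG is named only by this abbreviation in the labels. No group received THSG without dexamethasone, so its values could be read only on top of dexamethasone. The culture is 1 immortalized line in a dish, without nerve, vessel or host, and the labels do not say whether libraries of a group came from separate cultures. The p-values therefore measure the spread between these libraries, which may be technical.

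Ubiquitin ligases mark proteins with ubiquitin, and the proteasome or the lysosome then destroys many of those so marked. USPs reverse the mark: they rescue substrates from degradation, trim chains at the proteasome, recycle ubiquitin and remove the single ubiquitin on histones. In skeletal muscle, ligases such as Fbxo32 (atrogin-1) and Trim63 (MuRF1) are the best known side of this balance, and Usp14 and Usp19 are USPs that have been linked to muscle wasting in rodents.

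The values are taken to be FPKM (fragment counts divided by transcript length and library size), an inferred unit that allows levels of different genes to be set side by side. The table begins just above 1 FPKM, so a gene near that level in any library may be missing from it. The culture carried myotube transcripts: all 12 myotube markers looked for were present, with summed levels of 7786 to 7971 FPKM with dexamethasone plus THSG, 7286 to 7831 FPKM with dexamethasone and 6841 to 7389 FPKM with vehicle; with dexamethasone 6 of the 12 were higher and 1 was lower. None of 4 adipocyte markers was in the table. Of 5 fibroblast markers 3 were in it, with sums of 69.1 to 73.0 FPKM with dexamethasone plus THSG, 69.1 to 72.9 FPKM with dexamethasone and 161 to 175 FPKM with vehicle. Col1a1 (log2 fold change -1.51) and Dcn (-1.27), which encode matrix proteins, fell with dexamethasone, and Pdgfra, a growth factor receptor, rose (1.31). Of 10 myoblast markers, some of them also cell cycle genes, 9 were in it, and with dexamethasone 6 were lower and 2 higher. Of 11 genes known to respond to glucocorticoids 9 were in it, and all 9 rose. Of 22 cell cycle genes 15 were in it, summing to 102 to 107 FPKM with dexamethasone plus THSG, 99.1 to 104 FPKM with dexamethasone and 158 to 168 FPKM with vehicle; all 15 passed the test of dexamethasone against vehicle, 14 of them lower. The part of these cell type and cell cycle shifts in the USP differences was not tested, and in bulk RNA fewer cells of a type and less RNA per cell cannot be told apart. Library sums lay between 400218 and 422379 FPKM. On the first principal component (66.0% of the variance) the dexamethasone-treated libraries lay apart from those with vehicle, and on the second (7.7%) replicate 3 of dexamethasone lay apart, at -14.6 against -4.5 to 7.3 for the others; mitochondrial genes took 14% of its sum, against 10.5% to 12% elsewhere.

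Differences were tested with limma on log2(FPKM + 0.1) over all 10716 genes and all 9 libraries, with Benjamini-Hochberg adjusted p-values and a threshold of 0.05 (two-sided). Fold changes are on that log2 scale, which slightly understates those of low genes. With dexamethasone, 9 of the 43 members (20.9%) differed from vehicle, 8 higher and 1 lower, while 34 did not pass. Over all genes the test called 33.6%, of which 12.7% of the table was higher and 20.9% lower. The counts of called genes in the marker lists above and the role groups below are to be read beside these shares. Each role group is small, so its count is a description only. After a correction for transcript GC content and length the members' split was 9 higher and 3 lower, with Usp20 added among the higher and Usp9x and Usp14 among the lower. The median log2 fold change of the members was 0.031, beside -0.050 for all genes, and 34 members (79.1%) lay within 0.2 of 0, beside 57.8% of all genes. The dexamethasone and vehicle libraries did not overlap for 18 members, 11 higher and 7 lower, beside 45.9% of all genes. Without replicate 3 of dexamethasone the count was 8 members, 7 higher and 1 lower.

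**Figure D1:**
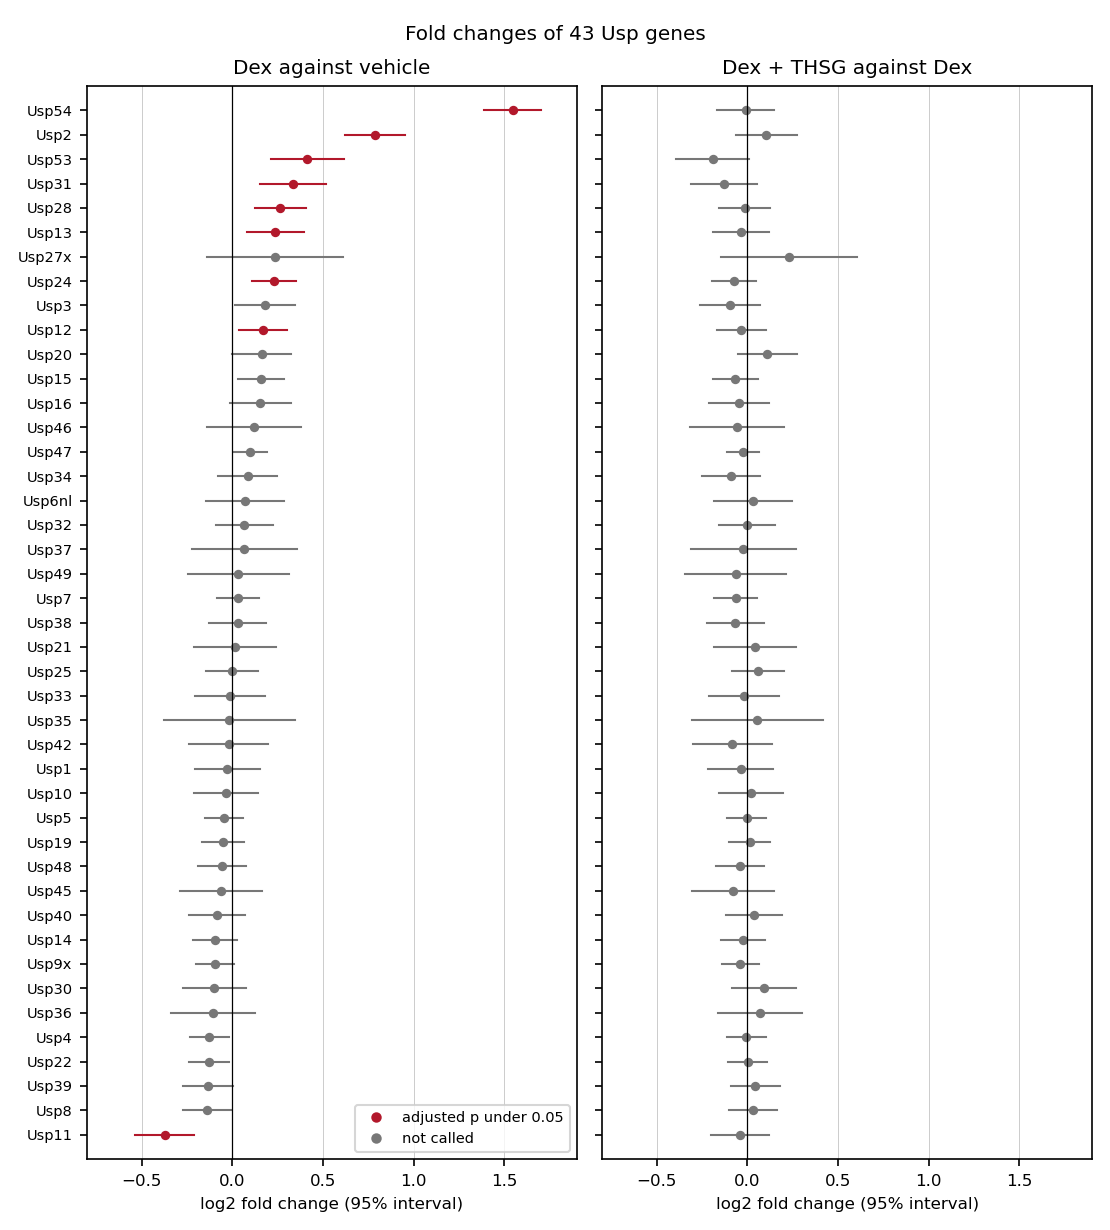
Log2 fold change of each of the 43 members in dexamethasone against vehicle and in dexamethasone plus THSG against dexamethasone, with 95% intervals from limma, on log2(FPKM + 0.1); the members are ordered by the first contrast. Usp54 stands farthest to the right at 1.55 and Usp11 farthest to the left at -0.37, while all intervals of the second contrast include 0.

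The 2 members with the largest increases were Usp54 and Usp2, and the single member that fell was Usp11. The RefSeq windows around the annotated start sites of these 3 genes (GRCm38.p6, 250 bases before to 50 after the start, 300 in all) are shown because the genes had the largest called changes in each direction and their CpG counts differ; CpG dinucleotides are in capitals.
Usp54, chr14:20618305-20618604, minus strand: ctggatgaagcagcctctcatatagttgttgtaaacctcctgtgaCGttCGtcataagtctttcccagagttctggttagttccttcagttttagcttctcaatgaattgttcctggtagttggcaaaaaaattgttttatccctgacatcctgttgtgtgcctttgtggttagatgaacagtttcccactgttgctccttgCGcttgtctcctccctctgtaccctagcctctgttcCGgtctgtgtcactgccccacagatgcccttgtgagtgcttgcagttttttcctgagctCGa
Usp2, chr9:44084670-44084969, plus strand: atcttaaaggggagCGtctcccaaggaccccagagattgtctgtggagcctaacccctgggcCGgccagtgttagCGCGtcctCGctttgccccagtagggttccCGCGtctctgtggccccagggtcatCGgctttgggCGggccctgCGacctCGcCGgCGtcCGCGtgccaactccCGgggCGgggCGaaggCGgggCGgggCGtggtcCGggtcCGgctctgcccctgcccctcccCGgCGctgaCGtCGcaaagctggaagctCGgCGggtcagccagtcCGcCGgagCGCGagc
Usp11, chrX:20703659-20703958, plus strand: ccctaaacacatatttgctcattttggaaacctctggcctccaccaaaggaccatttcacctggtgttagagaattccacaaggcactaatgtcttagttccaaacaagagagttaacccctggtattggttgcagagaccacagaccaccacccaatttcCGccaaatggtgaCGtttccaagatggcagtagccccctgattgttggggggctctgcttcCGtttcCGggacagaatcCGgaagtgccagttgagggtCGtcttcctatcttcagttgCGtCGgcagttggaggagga
The Usp2 window held 33 CpG, the Usp11 window 8 and the Usp54 window 5. RefSeq windows were matched for 34 members, 35 windows in all since Usp6nl has a pair, and Usp54 had the fewest CpG of them (median 31, range 5 to 63). The median over 10593 promoters of genes in the table was 21 CpG, and 10.4% of those had 5 or fewer. The other called members with a window had 25 (Usp31), 35 (Usp28), 36 (Usp13), 37 (Usp12) and 39 (Usp24) CpG. Among the members that rose and had a window, Usp54 alone was below the median of 21 CpG. Each gene has other annotated starts: 2 of 5 Usp54 transcripts, 2 of 9 Usp2 transcripts and 3 of 4 Usp11 transcripts began within 100 bases of the start used, and gene-level values do not show which start was in use. The full glucocorticoid response element (AGAACA, any 3 bases, then its reverse complement), which reads alike on both strands, was in none of the 35 windows and in 3 of all 32851 promoters. The hexamer AGAACA, an arm of that element, was searched on both strands and was in 3 member windows (Usp13, Usp19 and Usp45), beside 19% of all promoters. The E-box CACGTG was in 5 windows (Usp4, Usp6nl, Usp16, Usp31 and Usp32), beside 7.15% of all promoters. Both counts are out of 35 windows. All promoters had a median of 7 CpG, so they differ from the member windows in base composition. No motif share was computed for genes in the table alone, so these counts are descriptions only. No window was matched for Usp1, Usp5, Usp9x, Usp14, Usp22, Usp33, Usp39, Usp42 and Usp53.

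Usp54 belongs with Usp53 and Usp39 to the members long listed as lacking protease activity, although later work on the human USP53 and USP54 proteins described cleavage of ubiquitin chains. Its level was 13.3, 13.1 and 13.6 FPKM with dexamethasone plus THSG, 13.5, 13.8 and 13.0 FPKM with dexamethasone, and 4.56, 4.22 and 4.82 FPKM with vehicle. The 6 dexamethasone-treated libraries lay far above the 3 vehicle libraries, with no overlap. It rose 2.92-fold with dexamethasone (log2 fold change 1.55, SE 0.072, adjusted p = 1.98e-08; 95% interval 1.39 to 1.70), and it was the only member past 2-fold. Exons of Usp54 overlap those of the antisense genes 1810062O18Rik (580 bases) and 2810402E24Rik (55 bases), and neither is in the table; the strand setting of the counting is not given in the sources used here.

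Usp53, the closest relative of Usp54 and a protein of cell junctions, had 6.55, 6.71 and 7.32 FPKM with dexamethasone plus THSG, 7.04, 7.997 and 8.53 FPKM with dexamethasone, and 6.17, 5.61 and 5.79 FPKM with vehicle. Each dexamethasone library was above each vehicle library, and the libraries with THSG lay mostly between them. With dexamethasone it rose by 0.41 on the log2 scale (0.092 SE, adjusted p = 0.00464). Usp39, a splicing factor whose USP domain lacks catalytic residues, missed the threshold (log2 fold change -0.13, adjusted p = 0.119), although its dexamethasone and vehicle libraries did not overlap. Of these 3 members 2 were therefore higher with dexamethasone.

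Among the 7 members filed under signalling, clock and immunity, 3 were higher with dexamethasone (Usp2, Usp12 and Usp31) and none was lower. Over all genes 12.7% were higher and 20.9% lower. Usp2 acts on cyclin D1 and on clock proteins, and its own transcript cycles in several mouse tissues. It had 13.5, 12.2 and 13.7 FPKM with dexamethasone plus THSG, 12.1, 11.9 and 12.6 FPKM with dexamethasone, and 7.32, 6.48 and 7.32 FPKM with vehicle. Every dexamethasone-treated library exceeded the highest vehicle library by more than 4 FPKM. With dexamethasone it rose 1.72-fold (log2 fold change 0.79, SE 0.076, adjusted p = 9.62e-06). Of 17 clock genes 14 were in the table and 5 (35.7%) were called against vehicle, beside 33.6% of all genes. The single clock gene that rose was Per1, a repressor of the clock and a known target of the glucocorticoid receptor (log2 fold change 1.52, adjusted p = 1.9e-08), and Per3 (log2 fold change -0.9985) and Bhlhe40 (-0.44) were among the 4 that fell. Exons of Usp2 share 200 bases with Gm49380 and Gm39325 on the opposite strand, neither of which is in the table.

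Usp31, a regulator of NF-κB signalling in human cells, had 6.70, 6.36 and 6.78 FPKM with dexamethasone plus THSG, 7.63, 6.63 and 7.46 FPKM with dexamethasone, and 5.83, 5.76 and 5.52 FPKM with vehicle. All dexamethasone libraries were above all vehicle libraries, and the log2 fold change was 0.34 (SE 0.083, adjusted p = 0.0084). Usp12, which works with the WD-repeat cofactor Wdr48, had 13.8, 15.0 and 15.3 FPKM with dexamethasone plus THSG, 14.8, 15.4 and 14.8 FPKM with dexamethasone, and 13.5, 13.0 and 13.5 FPKM with vehicle. Its libraries did not overlap between dexamethasone and vehicle, but the change was small (log2 fold change 0.17, adjusted p = 0.0483). This call did not survive leaving out any library except replicate 1 of dexamethasone plus THSG: the adjusted p reached 0.131 without replicate 2 of dexamethasone and 0.129 without replicate 2 of vehicle. It was also lost with the replicate block (adjusted p = 0.071), with library sums set equal (0.0558) and with a fit of these 2 groups alone (0.0585). Its relative Usp46, which uses the same cofactor, differed by a log2 value of 0.12 (adjusted p = 0.471). Usp37, Usp38 and Usp40 were not called, with values of 0.065, 0.031 and -0.086 on the log2 scale.

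**Figure D2:**
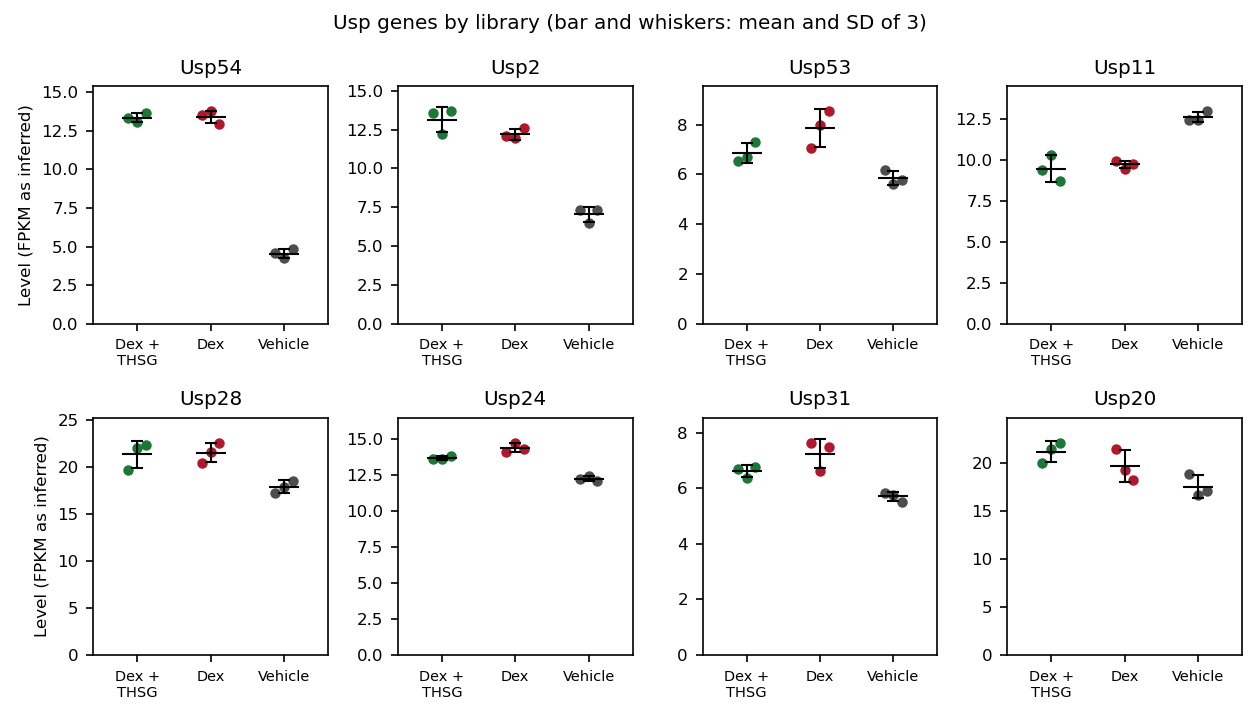
FPKM of Usp54, Usp2, Usp53, Usp11, Usp28, Usp24, Usp31 and Usp20 in each of the 9 libraries (points), by group on the x axis, with the mean and SD of 3 libraries as bar and whiskers. Usp54 and Usp2 have their 3 vehicle points well below the 6 points of the dexamethasone-treated groups, and Usp11 has them above.

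Of the 5 members tied to the TGF-β, Hippo and Wnt pathways, Usp11 was lower with dexamethasone and the other 4 were not called. Usp11 acts on the TGF-β receptor and in DNA repair. It had 9.36, 10.3 and 8.69 FPKM with dexamethasone plus THSG, 9.90, 9.45 and 9.76 FPKM with dexamethasone, and 12.4, 12.4 and 12.9 FPKM with vehicle. The lowest vehicle library exceeded the highest dexamethasone-treated library by about 2 FPKM. With dexamethasone Usp11 had 0.772 of the vehicle level (log2 fold change -0.37, SE 0.074, adjusted p = 0.00221). Usp15, which is of the same subfamily as Usp11 and also acts on SMAD signalling, was at a positive value that did not pass the test (log2 fold change 0.16, adjusted p = 0.0511). Usp4, the other member of that subfamily, had 30.3, 32.0 and 31.4 FPKM with dexamethasone plus THSG, 30.6, 31.2 and 32.2 FPKM with dexamethasone, and 35.3, 32.8 and 34.7 FPKM with vehicle. All its dexamethasone libraries were below the vehicle libraries, yet the log2 difference of -0.13 missed the threshold (adjusted p = 0.0652).

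Usp9x, an X-linked enzyme that acts on SMAD4 and on proteins of cell polarity, had 30.4, 29.2 and 29.6 FPKM with dexamethasone plus THSG, 30.5, 30.0 and 31.2 FPKM with dexamethasone, and 31.5, 32.6 and 33.9 FPKM with vehicle. Its dexamethasone libraries were all below the vehicle libraries, by a log2 difference of -0.10 that was not called (adjusted p = 0.14). After the correction for GC content and length Usp9x was called lower (log2 fold change -0.20, adjusted p = 0.00164). Usp34, linked to axin in Wnt signalling, differed by a log2 value of 0.085 (adjusted p = 0.41). Exons of Usp34 overlap those of Ahsa2 on the other strand over 2137 bases, and Ahsa2 is also in the table. The 3 X-linked members, Usp9x, Usp11 and Usp27x, were thus at log2 fold changes of -0.10, -0.37 and 0.24.

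Of the 8 members linked to DNA repair and p53, Usp24 and Usp28 were higher with dexamethasone and none was lower. Usp28 stabilizes Myc and binds a mediator of the DNA damage response. It had 19.7, 21.95 and 22.3 FPKM with dexamethasone plus THSG, 20.4, 21.6 and 22.5 FPKM with dexamethasone, and 17.2, 17.9 and 18.5 FPKM with vehicle. The dexamethasone libraries all lay above the vehicle libraries (log2 fold change 0.26, SE 0.064, adjusted p = 0.00783). Usp24, a very large USP reported to act on p53 in human cells, had 13.6, 13.6 and 13.8 FPKM with dexamethasone plus THSG, 14.1, 14.7 and 14.3 FPKM with dexamethasone, and 12.2, 12.4 and 12.1 FPKM with vehicle. Its log2 fold change with dexamethasone was 0.23 (SE 0.055, adjusted p = 0.00738), again without overlap.

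Usp7, which deubiquitinates Mdm2 and p53, had 26.4, 26.5 and 26.5 FPKM with dexamethasone plus THSG, 26.1, 27.9 and 29.1 FPKM with dexamethasone, and 26.1, 28.1 and 27.0 FPKM with vehicle. The groups overlapped and the log2 difference with dexamethasone was 0.032 (95% interval -0.086 to 0.15). Of its substrates, Mdm2, the main ligase for p53, rose by 0.20 on the log2 scale (adjusted p = 0.00382), and Trp53, which encodes p53, fell with a log2 fold change of -0.23 (adjusted p = 0.0199). Usp1, which acts on PCNA and FANCD2 with Wdr48, had 8.77, 8.24 and 9.17 FPKM with dexamethasone plus THSG, 8.37, 9.42 and 9.09 FPKM with dexamethasone, and 9.71, 8.44 and 9.28 FPKM with vehicle. Its groups overlapped, and it differed by a log2 value of -0.028 (95% interval -0.21 to 0.15).

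Usp10, an enzyme for cytosolic p53 and a partner of the stress granule proteins G3bp1 and G3bp2, had 11.5, 12.2 and 14.1 FPKM with dexamethasone plus THSG, 12.7, 12.9 and 11.6 FPKM with dexamethasone, and 12.9, 12.3 and 12.9 FPKM with vehicle. Its groups overlapped, with a log2 difference of -0.035 for dexamethasone against vehicle (95% interval -0.21 to 0.14). Usp47, an enzyme for DNA polymerase beta, had 47.4, 47.2 and 46.9 FPKM with dexamethasone plus THSG, 46.5, 48.6 and 48.8 FPKM with dexamethasone, and 43.8, 45.1 and 45.4 FPKM with vehicle. Its dexamethasone libraries all exceeded its vehicle libraries, but the log2 difference of 0.10 missed the threshold (adjusted p = 0.0874). Usp45 and Usp48 were not called, at log2 fold changes of -0.062 and -0.054.

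Of the 3 members of ubiquitin recycling and the proteasome, Usp13 rose and Usp5 and Usp14 were not called. Usp5 takes apart free ubiquitin chains and was the most abundant member. It had 52.8, 53.0 and 52.0 FPKM with dexamethasone plus THSG, 54.7, 53.7 and 50.0 FPKM with dexamethasone, and 56.1, 52.1 and 55.4 FPKM with vehicle. The groups overlapped, and the log2 difference with dexamethasone was -0.047 (95% interval -0.15 to 0.059). Its relative Usp13, which acts in endoplasmic reticulum-associated degradation, had 12.3, 12.4 and 12.3 FPKM with dexamethasone plus THSG, 13.0, 12.8 and 12.1 FPKM with dexamethasone, and 10.6, 9.91 and 11.7 FPKM with vehicle. All dexamethasone libraries were above all vehicle libraries (log2 fold change 0.24, SE 0.071, adjusted p = 0.0227). That call was lost without replicate 1 of dexamethasone (adjusted p = 0.0711), replicate 2 of dexamethasone (0.061), replicate 1 of vehicle (0.0592) or replicate 2 of vehicle (0.0893).

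Usp14, which sits on the proteasome and trims the chains of arriving substrates, had 39.6, 37.1 and 37.6 FPKM with dexamethasone plus THSG, 36.5, 41.2 and 38.7 FPKM with dexamethasone, and 40.2, 43.2 and 40.9 FPKM with vehicle. Dexamethasone and vehicle overlapped, at a log2 difference of -0.10 (95% interval -0.22 to 0.026). After the correction for GC content and length Usp14 was called lower (log2 fold change -0.14, adjusted p = 0.0349). Its exons overlap those of Thoc1 on the opposite strand over 2169 bases, so reads of the pair could be split wrongly if strand was not used.

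None of the 8 histone and chromatin members was called with dexamethasone. Usp22, the H2B deubiquitinase of the SAGA complex, had 28.5, 29.1 and 28.0 FPKM with dexamethasone plus THSG, 27.0, 29.8 and 28.7 FPKM with dexamethasone, and 31.5, 31.1 and 30.8 FPKM with vehicle. Its dexamethasone libraries lay below its vehicle libraries, but the log2 difference of -0.13 missed the threshold (adjusted p = 0.0689). Usp27x, which can take the place of Usp22 on the same SAGA subunits, was near the lower end of the table, and its log2 difference was 0.24 (95% interval -0.14 to 0.61). Usp3 and Usp16, which act on H2A, were at log2 fold changes of 0.18 (adjusted p = 0.0903) and 0.15 (adjusted p = 0.141). Usp21, Usp36, Usp42 and Usp49 lay between log2 fold changes of -0.11 and 0.034. Exons of Usp49 share 4392 bases on the same strand with Gm20517, which is not in the table, so its level of 1.79 FPKM is uncertain.

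None of the 9 members of endosomes, the endoplasmic reticulum and mitochondria was called either. Usp19, an enzyme of the endoplasmic reticulum membrane whose transcript has been reported to rise in wasting rat muscle, had 42.8, 42.3 and 42.9 FPKM with dexamethasone plus THSG, 43.2, 43.9 and 40.0 FPKM with dexamethasone, and 45.4, 41.3 and 44.9 FPKM with vehicle. The groups overlapped and the log2 difference with dexamethasone was -0.051, with a 95% interval of -0.17 to 0.064. Usp25, which counters degradation at the endoplasmic reticulum and is enriched in muscle as a longer isoform, had 11, 10.1 and 10.8 FPKM with dexamethasone plus THSG, 10.2, 10.2 and 10.3 FPKM with dexamethasone, and 10.6, 9.77 and 10.3 FPKM with vehicle. At a log2 fold change of -0.0012 (95% interval -0.15 to 0.14) its difference was the closest to 0 of all members.

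Usp20, an enzyme of receptor recycling, had 20.05, 21.5 and 22.1 FPKM with dexamethasone plus THSG, 21.5, 19.3 and 18.3 FPKM with dexamethasone, and 18.9, 16.7 and 17.1 FPKM with vehicle. Dexamethasone and vehicle overlapped through 1 library of each (log2 fold change 0.16, adjusted p = 0.116). Usp8, an endosomal enzyme that protects receptors from lysosomal sorting, was at a log2 fold change of -0.14 (adjusted p = 0.0928). Usp30 and Usp35, both tied to mitochondria, were at log2 fold changes of -0.10 and -0.017, and Usp32, Usp33 and Usp6nl were at 0.067, -0.012 and 0.069, none of them called.

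Levels of members differed far more than their responses. Usp5 (53.3 FPKM over all libraries), Usp47 (46.6), Usp19 (42.96), Usp14 (39.4) and Usp4 (32.3) were the most abundant, and Usp35 (1.37), Usp27x (1.54) and Usp49 (1.79) the least. In all, 10 members averaged at least 20 FPKM, 27 were from 5 up to 20 FPKM and 6 were under 5 FPKM. Neighbours in this order were often within their spread: Usp47 and Usp19 overlapped among vehicle libraries, as did Usp9x and Usp22. Of the members called in dexamethasone against vehicle, Usp28 (rank 10) and Usp12 (rank 14) were the most abundant, and Usp53 (rank 32) and Usp31 (rank 33) the least. No called member was among the 9 most abundant. Of those 9, however, Usp4, Usp8, Usp9x, Usp14, Usp22 and Usp47 passed with another processing of the values or with a library left out. Summed over the family, levels were 668 to 672 FPKM with dexamethasone plus THSG, 671 to 683 FPKM with dexamethasone and 654 to 667 FPKM with vehicle.

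**Figure D3:**
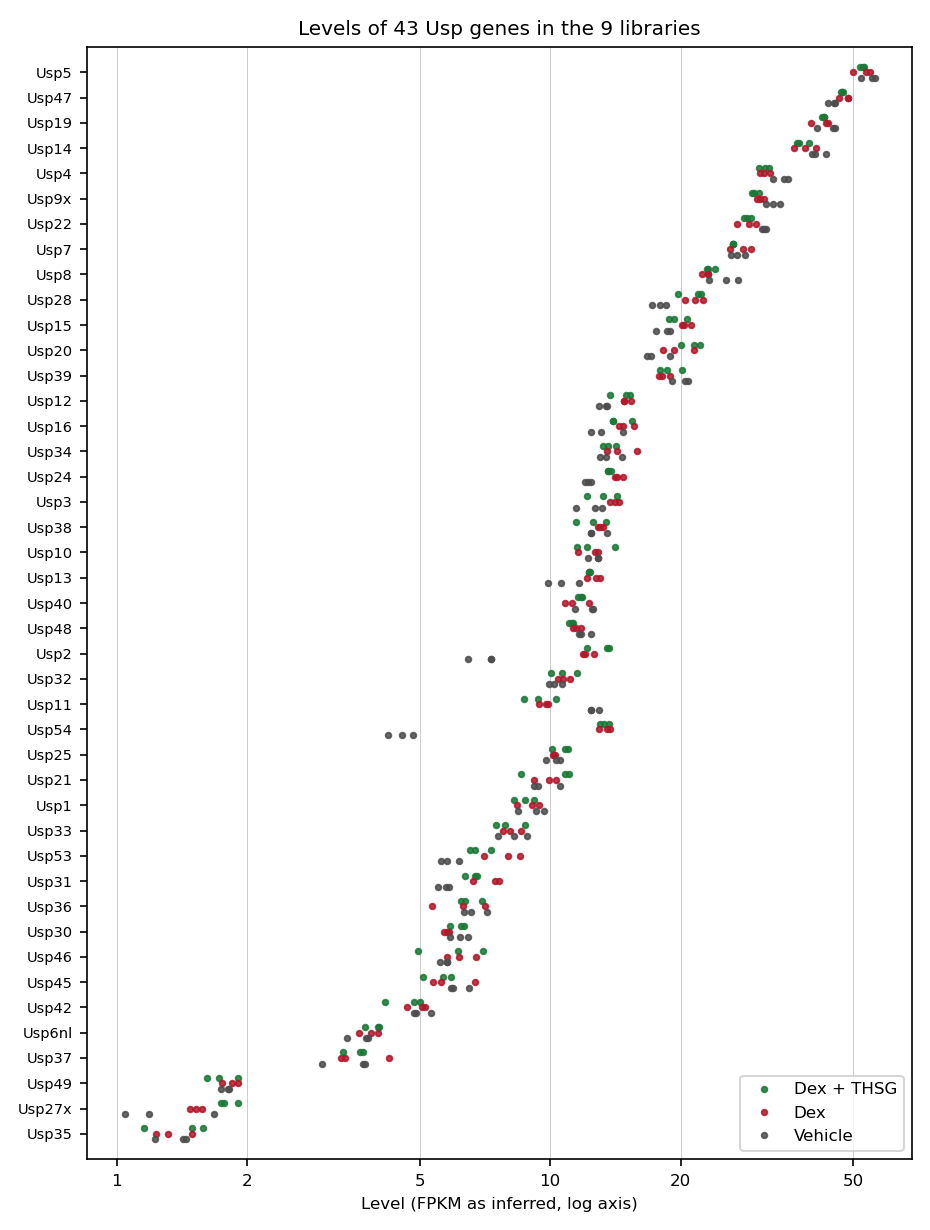
Level in FPKM (log axis) of the 43 members, 1 point per library coloured by group, ordered from the highest mean over all libraries. Levels run from Usp5 at 53.3 FPKM to Usp35 at 1.37 FPKM, and the groups separate visibly for Usp54 and Usp2.

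The balance between related members was compared next. Of 16 pairs of related genes with both members in the table, 9 had log2 ratios that did not overlap between dexamethasone and vehicle libraries. Of single genes 45.9% did not overlap, and the share for ratios of other gene pairs was not computed, so the count of 9 is a description only. With 3 libraries against 3 an exact permutation test cannot give a p below 0.1, so these ratios are given without a test. Usp53 over Usp54 had a mean log2 ratio of -0.77 with dexamethasone and 0.36 with vehicle, a difference of -1.13 (SE 0.11). Usp54 was thus the more abundant of the pair with dexamethasone and the less abundant with vehicle. Usp2 over Usp21 differed by 0.77 (SE 0.10), where Usp2 rose and Usp21, a histone deubiquitinase, was at a log2 fold change of 0.016 and not called. Usp11 over Usp15 differed by -0.53 (SE 0.037), and Usp4 over Usp15 by -0.29 (SE 0.058). Of these 3 genes, which form 1 subfamily, Usp11 alone was called.

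For Usp5 over Usp13 the difference was -0.29 (SE 0.051), for Usp25 over Usp28 -0.27 (SE 0.064) and for Usp9x over Usp24 -0.33 (SE 0.050). In each of these 3 pairs the second gene was called higher and the first was not called. Usp4 over Usp11 differed by 0.24 (SE 0.045) and Usp9x over Usp34 by -0.18 (SE 0.061). The ratios of Usp20 and Usp33, Usp12 and Usp46, Usp7 and Usp47, Usp16 and Usp45, Usp36 and Usp42, Usp22 and Usp27x, and Usp35 and Usp38 overlapped between the groups.

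**Figure D4:**
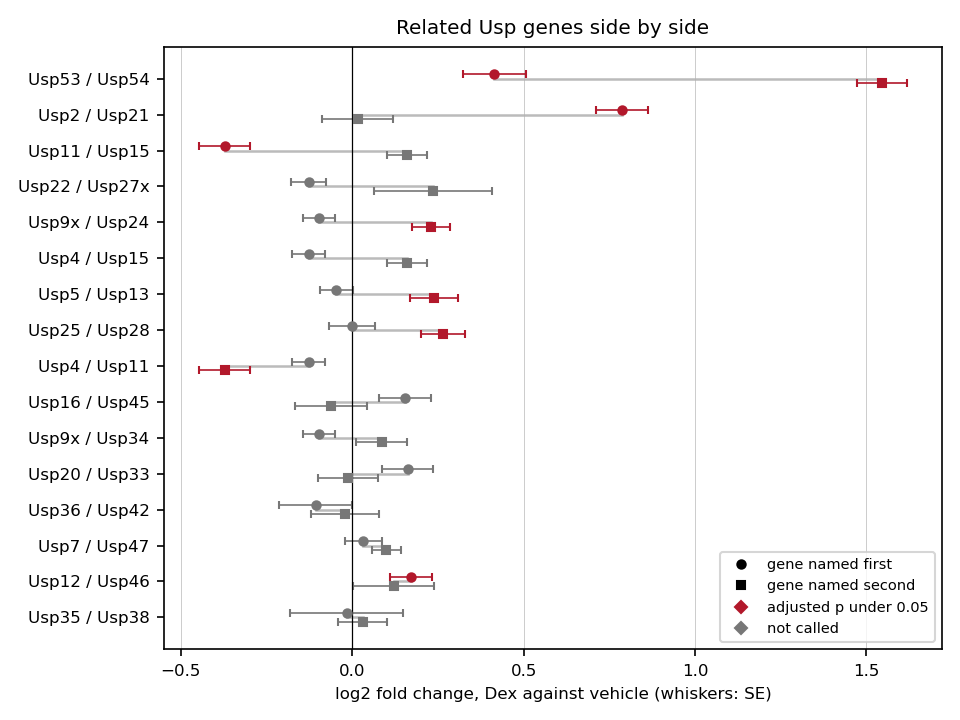
Log2 fold change of dexamethasone against vehicle for both genes of each of the 16 pairs (circle, gene named first; square, gene named second), with SE as whiskers and a line joining the pair; genes with adjusted p under 0.05 are red. Usp53 and Usp54 lie farthest apart, at 0.41 and 1.55.

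Genes of the other deubiquitinase families, listed by fold and not all of them active on ubiquitin, were set beside the USPs. Of 41 listed genes 38 were in the table and 8 (21.1%) were called with dexamethasone, 5 higher and 3 lower, with a median log2 fold change of 0.035; over all genes the test called 33.6%, 12.7% higher and 20.9% lower. By family the calls were 3 of 13 OTU genes, 2 of 10 JAMM genes, 1 of 4 UCH genes and 1 of 3 Josephins. The rest were 1 of 5 MINDY and ZUFSP genes and none of 3 further genes with a USP fold (Cyld, Uspl1 and Pan2). The highest rise was that of Mindy3, an enzyme that trims long chains (log2 fold change 0.54, adjusted p = 0.000862), and the lowest value that of Uchl1, a ubiquitin hydrolase abundant in neurons (log2 fold change -0.74, adjusted p = 0.0215). Uchl1 was near the lower end of the table, with means of 1.41 FPKM with dexamethasone and 2.445 FPKM with vehicle. In dexamethasone plus THSG against vehicle it was not called (limma adjusted p = 0.104). Otud6b (log2 fold change 0.33), Otud7b (0.21), Yod1 (0.33) and Mysm1 (0.26) also rose, and Mpnd (-0.49) and Josd1 (-0.15) fell. Of 16 ligases linked to muscle atrophy 15 were found under their symbols, and 6 of them rose. Fbxo32 had 74.3 ± 1.60 FPKM with dexamethasone and 17.4 ± 0.72 FPKM with vehicle (SD, n = 3 each; log2 fold change 2.08, limma adjusted p = 4.8e-11). Cblb, a ligase for signalling adaptors (log2 fold change 1.23), and Trim63 (0.69) rose as well. Usp54 thus lay between Cblb and Fbxo32 in size of change.

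**Figure D5:**
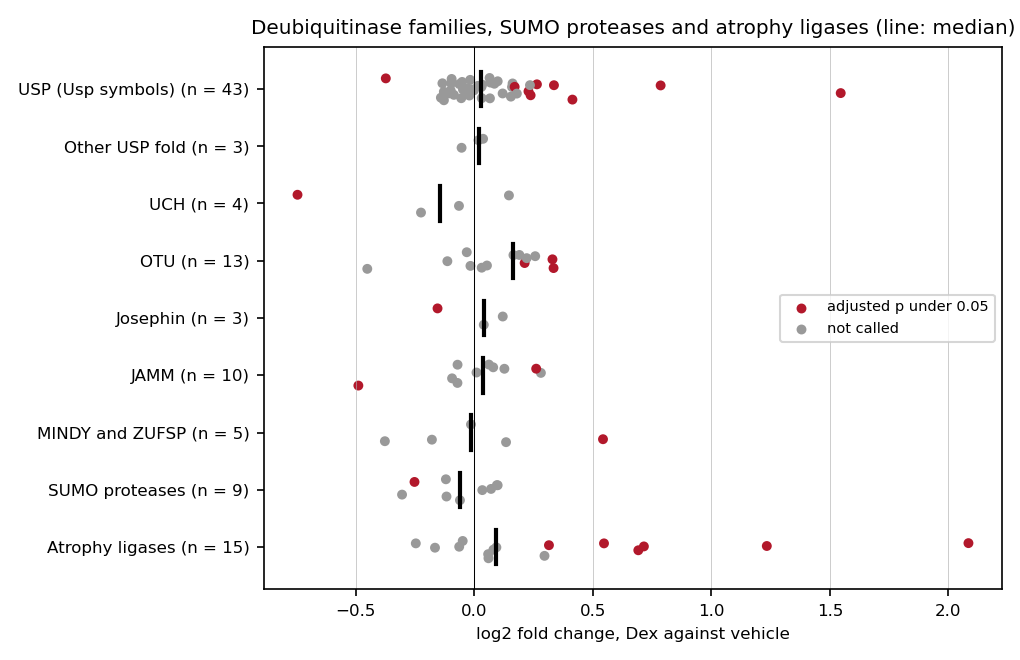
Log2 fold change of dexamethasone against vehicle for each gene (points) of the USPs, the other deubiquitinase families, the SUMO proteases and the atrophy ligases, with the median of each family as a line and genes with adjusted p under 0.05 in red. The 43 Usp members centre at 0.031 with Usp54 and Usp2 to the right, and the ligase Fbxo32 lies farthest right at 2.08.

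Adding THSG to dexamethasone gave no called member. The adjusted test called 0 of 43 members and 0% of all genes, and at an unadjusted p under 0.05 it gave 0 members, beside 7.25% of all genes. Log2 fold changes of dexamethasone plus THSG against dexamethasone ran from -0.19 (Usp53) to 0.23 (Usp27x), with a median of -0.023, beside 0.016 for all genes. The 95% intervals reached a median of 0.16 to either side, so smaller differences than that could not be told from 0 for a typical member. The smallest unadjusted p belonged to Usp53 (log2 fold change -0.19, 95% interval -0.39 to 0.012; unadjusted p = 0.0623 and adjusted p = 0.698 by limma). Its 3 libraries with THSG overlapped those with dexamethasone alone. Next came Usp31 (log2 fold change -0.13, 95% interval -0.31 to 0.055), Usp20 (log2 fold change 0.11, 95% interval -0.053 to 0.27) and Usp2 (log2 fold change 0.10, 95% interval -0.063 to 0.27).

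For members called with dexamethasone, the interval of the THSG difference can be set beside the dexamethasone response. Usp54 differed by a log2 value of -0.0079 between dexamethasone plus THSG and dexamethasone (95% interval -0.16 to 0.15), and Usp11 by -0.041 (-0.20 to 0.12). Neither interval reached the size of the gene's own difference between dexamethasone and vehicle. The other called members rose, and their lower interval ends are set beside that rise. They were -0.39 for Usp53 (rise 0.41), -0.31 for Usp31 (0.34), -0.19 for Usp24 (0.23) and -0.16 for Usp12 (0.17). These came close to the full rise. For Usp13 the end was -0.19 (0.24), for Usp28 -0.16 (0.26) and for Usp2 -0.063 (0.79). Of the 43 members, 4 had libraries that did not overlap between dexamethasone plus THSG and dexamethasone alone, beside 13.3% of all genes. Usp24 and Usp48 were lower and Usp27x and Usp30 higher with THSG.

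Dexamethasone plus THSG was also set against vehicle, a comparison that shares its libraries with both others. It called 5 members, 4 higher and 1 lower, beside 29.1% of all genes (12.1% of the table higher and 17% lower). Usp54 (log2 fold change 1.54, adjusted p = 2.08e-08), Usp2 (log2 fold change 0.89, adjusted p = 3.7e-06) and Usp28 (log2 fold change 0.25, adjusted p = 0.0121) were higher and Usp11 was lower (log2 fold change -0.41, adjusted p = 0.00123). Usp20 was higher here (log2 fold change 0.27, adjusted p = 0.0165) and was not called with dexamethasone alone (log2 fold change 0.16), where it did pass after median-ratio scaling (0.21, adjusted p = 0.0477) and once GC content and length were corrected for (0.24, adjusted p = 0.00927). The call of Usp20 was lost without replicate 2 or 3 of dexamethasone plus THSG (adjusted p = 0.0527 and 0.0637) and without replicate 2 or 3 of vehicle (0.0642 and 0.053). The call of Usp28 was lost without replicate 3 of dexamethasone plus THSG (adjusted p = 0.0531), and without that library 3 members were called.

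Of the 9 members called with dexamethasone, 5 missed the threshold with dexamethasone plus THSG. There, Usp13 was at a log2 fold change of 0.20 (adjusted p = 0.0525), Usp24 at 0.16 (0.0537), Usp31 at 0.21 (0.0813), Usp53 at 0.22 (0.0919) and Usp12 at 0.14 (0.112). The difference between the groups with and without THSG, which bears on this directly, was called for none of them. Under another normalization the count against vehicle was higher, 10 members after quantile normalization and 8 after scaling by median ratios.

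The annotation holds 59 symbols that meet the naming rule, and 16 of them were not in the table and were not analysed here. They are Usp9y, Usp17la, Usp17lb, Usp17lc, Usp17ld, Usp17le, Usp17le-ps, Usp18, Usp26, Usp29, Usp43, Usp44, Usp50 and Usp51, and the antisense transcripts Usp46os1 and Usp46os2. Usp18, which removes the ubiquitin-like protein ISG15, is an interferon-stimulated gene. Of 19 interferon-stimulated genes listed 11 were in the table, and with dexamethasone 7 of them fell and 1 rose. Over all genes 20.9% were lower and 12.7% higher. The reason for the absence of Usp18 was not tested.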

How the data were processed

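RNA was extracted from the C2C12 myotubes with a Hybrid-R kit and made into libraries with a TruSeq Stranded mRNA kit, per the labels. Alignment and counting tools in the submitters' processing notes are STAR 2.7.10a and featureCounts, on build GRCm39. The values deposited by the authors are fractional and all above 1 (lowest 1.00042), so their unit was inferred to be FPKM; no header or label states it, and TPM or another scaled unit cannot be told apart. Gene lengths, strand setting and filter are not given in the sources used here. Reads could not be recovered, so the depth of each library is unknown and precision is known only from the spread between libraries. The line was taken from the sample titles, since the labels' separate entry for it changes its last digits with each sample.

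The files held scaled values, so limma 3.58.1 (R 4.3.3) with an intensity trend was used in place of a count model: log2(FPKM + 0.1), 1 mean per group, 9 libraries, Benjamini-Hochberg adjustment over 10716 genes, threshold 0.05, two-sided, intervals of 95%; the code was tested on simulated data. Members and gene lists were chosen with earlier results of these data known. Library values were printed for called members, for the 4 members with the smallest p for THSG, for the 5 most abundant and for 9 USPs well known from muscle or p53 work. Of other lists, at most 3 genes each were given with values. Lists were matched by table symbol; Fbxo31, whose identifier carries another symbol in the table, was left out. Transcript length, GC content and exon overlaps came from GENCODE M21 (GRCm38) and promoter windows from RefSeq (GRCm38.p6); all 43 members matched the annotation. Alternatives were 2 pseudocounts, 3 normalizations, a minimum mean of 5 FPKM, a fit without trend, a fit of 2 groups alone, a block for the replicate number, a GC and length correction, both together, and each library left out. Same-numbered libraries deviated with correlations of -0.086 to 0.107, so the numbers were not taken to pair them.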

Additional observations from a re-analysis of the deposited data

How the results depend on the processing

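Of the 9 calls with dexamethasone against vehicle, 7 held in all 20 alternatives (Usp54, Usp2, Usp11, Usp53, Usp24, Usp28 and Usp31), and Usp12 and Usp13 did not; 10 of the 34 members not called passed in at least 1 alternative. Those were Usp9x, Usp14 and Usp20 after the GC and length correction, Usp15, Usp3, Usp47 and Usp20 after rescaling, and with 1 library left out Usp4 and Usp16 (vehicle replicate 2, adjusted p = 0.0443 and 0.0485), Usp8 (vehicle replicate 1, 0.0237) and Usp22 (dexamethasone replicate 2, 0.0465). Usp15 also passed with a minimum mean of 5 FPKM and without replicate 1 of dexamethasone plus THSG. The count of 9 ran from 7 to 10 when a library was left out, and it was 13 (12 higher, 1 lower) with median-ratio scaling and 12 (11 higher, 1 lower) with quantile normalization. The count of 0 for dexamethasone plus THSG against dexamethasone held in all 20. For dexamethasone plus THSG against vehicle the count of 5 became 8 with median-ratio scaling, 10 with quantile normalization, 8 with a minimum mean of 5 FPKM, 8 without the intensity trend and 8 with the GC and length correction; with a library left out it ran from 3 to 6, the 3 being without replicate 3 of dexamethasone plus THSG. The cause of these shifts was not tested. Over all genes, 37.8% of the calls with dexamethasone were higher, beside 50.5% after quantile normalization, 49.6% after scaling by median ratios and 51.9% after the GC and length correction. With the replicate block, 8 members were called with dexamethasone (Usp12 was lost), 0 for THSG against dexamethasone alone and 5 for dexamethasone plus THSG against vehicle, and 67, 0 and 67 genes of the other lists, beside 68, 0 and 70 without it; no library correlated best with its own number in both other groups. The unknown depth, the filter near 1 FPKM and 3 libraries per group limit what could be seen.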

Other observations

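Genes around the USPs were described from the same fit. Of 9 SUMO proteases, which remove the ubiquitin-like protein SUMO, only Senp3, an enzyme of the nucleolus, passed the test of dexamethasone against vehicle (log2 fold change -0.25, adjusted p = 0.00847). Of 13 cofactors and substrates of USPs, 11 were not called with dexamethasone, and the 2 that passed were Mdm2 and Trp53. Over all genes 33.6% were called in this comparison.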
